A study of Danio rerio with 18 samples.

Results

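The genes described here code for the mitochondrial ribosome and the respiratory chain of the zebrafish. They were chosen by name from the platform annotation: single gene symbols that start with mrpl, mrps, nduf, uqcr or atp5, with sdh and a letter from a to d, or with cox and a digit, to which the ribosome assembly gene malsu1 was added by name. The rule found 150 genes of 8793 with a single-symbol probe set, 60 of the ribosome and 90 of the chain. Each was read from 1 probe set, the one with the highest mean over 18 arrays. The ribosome genes comprise 38 of the large subunit, 21 of the small subunit and malsu1. The chain genes comprise 39 of complex I, 7 of complex II, 7 of complex III, 19 of complex IV and 18 of complex V, and 16 of these 90 code for assembly factors or regulators rather than subunits. Classes follow the gene names, which need not match the place of every protein: in mammals, for example, NDUFA4 sits in complex IV. The result of malsu1 at 1 hour after fertilization was known when the list was drawn up, so several counts that it enters are also given without it. Other counts of ribosome genes include it as a member.

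RNA of whole wild-type embryos was hybridised to Affymetrix arrays, 1 array per sample. Embryos had received an anti-mir-34 LNA or a mock LNA by microinjection at the 1 to 2 cell stage, and were collected at 1, 7 or 24 hours post fertilization (hpf). Embryos of 7 and 24 hpf were freed of their chorion by hand before lysis, a step the labels do not state for 1 hpf, so handling and age cannot be told apart there. An LNA is a synthetic oligonucleotide with locked sugar rings that binds a small RNA tightly. The 6 groups were anti-mir-34 and mock embryos of 1 hpf, of 7 hpf and of 24 hpf, each with 3 arrays that the labels call biological replicates. All groups share the wild-type background and the injection itself, and no uninjected embryos were analysed here. The sources used here do not say how many embryos made up a sample or whether replicates came from separate clutches, so the p-values measure the spread between these samples. No probe set carries a mir-34 name in the annotation used, so the knockdown itself was not checked.

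Most proteins of the respiratory chain are encoded in the nucleus, made in the cytosol and imported. A few core subunits of complexes I, III, IV and V are encoded in mitochondrial DNA and are made inside the organelle by the mitochondrial ribosome, whose proteins are also nuclear-encoded. Complex I oxidises NADH, complex II oxidises succinate, complex III passes electrons to cytochrome c, complex IV reduces oxygen, and complex V, the ATP synthase, uses the resulting proton gradient. A zebrafish egg supplies the embryo with mitochondria and with maternal mRNA, and zygotic transcription starts at the blastula stage, between the earliest age sampled here and 7 hpf.

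Values are log2 signals as deposited, where a difference of 1 is a factor of 2. Every array holds the same sorted list of values to within 131 missing ones (99.9872% to 100% of values equal in every deposited digit), none of them in a probe set of these genes. A value is therefore a rank within its array, and the arrays are silent on changes in total RNA. Correlations between arrays of 1 group lay between 0.888 and 0.944. Arrays have no read depth, and their number limits the precision. The values used here come without detection calls. A level below the median of all values, 3.68, is called dim here, and 7 of the 150 genes had a mean below it: mrpl43, mrps33, ndufa4b, sdhaf3, cox4i1l, cox4i2 and cox6b1.

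Stage markers set apart 2 mock arrays. The median of 10 gastrula markers was 6.69, 6.02 and 6.72 on the anti-mir-34 arrays of 7 hpf, and 5.93, 4.60 and 6.57 on the mock arrays, with replicate 2 lowest. The median of 9 oocyte and maternal markers was -0.32, 0.26 and -0.09 on the anti-mir-34 arrays of 24 hpf, against 0.13, 2.6 and 0.25 on the mock arrays, with replicate 2 highest. Anti-mir-34 replicate 3 of 24 hpf stood apart on heart and blood markers. The median of 3 heart markers was 5.96, 5.54 and 3.24 on the anti-mir-34 arrays of 24 hpf, against 5.44, 5.04 and 5.50 on the mock arrays, and that of 4 embryonic blood markers was 8.34, 8.51 and 6.96, against 8.21, 8.11 and 8.36. Counts of called ribosome and chain genes between ages in mock embryos are also given with both mock arrays left out. This alternative was chosen after the data were seen. The same counts in anti-mir-34 embryos that rest on replicate 3 of 24 hpf are also given without it. The share of all probe sets called in these smaller fits was not counted, so those counts stand without a background. Injection counts at 7 and 24 hpf are not given with both mock arrays left out.

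The chain genes stood higher at 24 hpf than at either earlier age. The median of the 90 chain genes was 6.98, 6.58 and 6.19 on the anti-mir-34 arrays of 1 hpf, 6.60, 6.40 and 6.64 at 7 hpf, and 7.89, 8.02 and 7.76 at 24 hpf. On the mock arrays it was 6.68, 6.61 and 6.38 at 1 hpf, 6.60, 6.38 and 6.54 at 7 hpf, and 7.82, 7.86 and 7.97 at 24 hpf. All 6 arrays of 24 hpf were above all 12 of the earlier ages, and the arrays of 1 and 7 hpf overlapped.

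The ribosome genes had their lowest group medians at 7 hpf. Their median was 6.18, 5.78 and 5.81 on the anti-mir-34 arrays of 1 hpf, 5.73, 5.41 and 5.58 at 7 hpf, and 6.16, 6.30 and 6.05 at 24 hpf. On the mock arrays it was 5.93, 5.86 and 5.63 at 1 hpf, 5.71, 5.61 and 5.42 at 7 hpf, and 6.19, 6.16 and 6.27 at 24 hpf. The arrays of 24 hpf lay above those of 7 hpf without overlap. They overlapped those of 1 hpf in anti-mir-34 embryos and lay above all 3 of 1 hpf in mock embryos. The arrays of 7 hpf lay below those of 1 hpf in anti-mir-34 embryos and overlapped them in mock embryos. As means of 3 arrays, small subunit medians went from 6.17 at 1 hpf to 5.59 at 7 hpf in anti-mir-34 embryos, and from 6.04 to 5.67 in mock embryos. Large subunit medians went from 5.72 to 5.61 and from 5.66 to 5.55, with arrays that overlapped. The chain median minus the ribosome median on the same array was 0.38 to 0.80 at 1 hpf, 0.77 to 1.12 at 7 hpf and 1.63 to 1.73 at 24 hpf. The lowest of these values, 0.38, came from anti-mir-34 replicate 3 of 1 hpf. Medians over listed genes are given as a description, with no test.

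**Figure D1:**
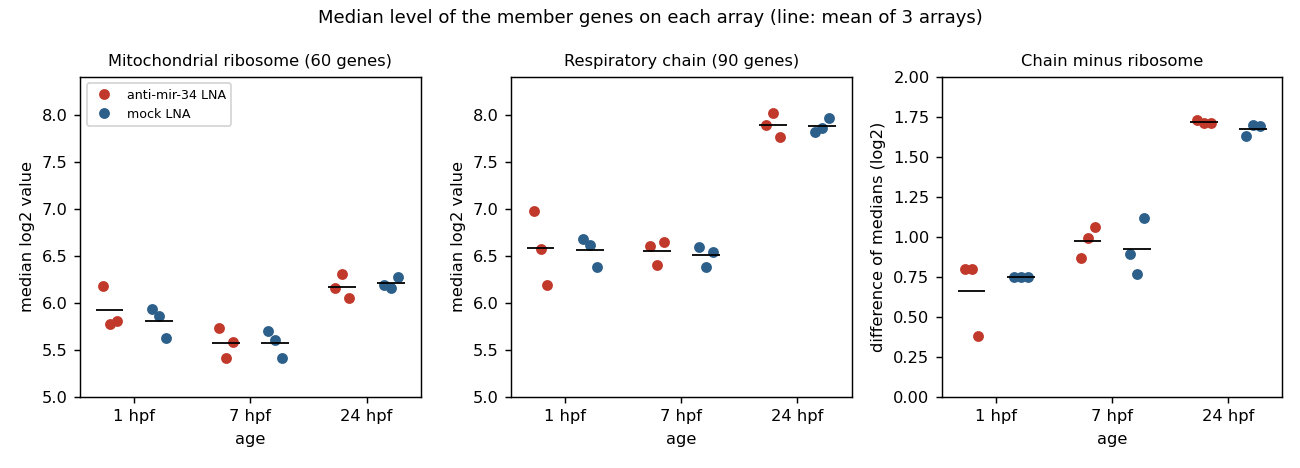
Median log2 value of the 60 ribosome genes (left) and the 90 chain genes (middle) on each of the 18 arrays, and the chain median minus the ribosome median on the same array (right), by age in hours post fertilization (hpf). Each point is 1 array, red for anti-mir-34 LNA and blue for mock LNA, and lines are means of 3 arrays. The chain medians of 24 hpf, 7.76 to 8.02, lie above all earlier ones, and the difference reaches 1.63 to 1.73.

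Between 1 and 7 hpf the genes moved both ways, and more of them fell than rose. In anti-mir-34 embryos 31 of 90 chain genes fell and 17 rose at an adjusted p under 0.05 in limma's moderated test over all 15502 probe sets. The ribosome had 21 of 60 genes lower and 7 higher, or 6 higher without malsu1. Over all probe sets of this comparison 20% fell and 19.4% rose. In mock embryos 16 chain genes fell and 11 rose, and 9 ribosome genes fell and 0 rose, where 10.4% of all probe sets fell and 13.6% rose. At an unadjusted p under 0.05 in the same limma test, 4 ribosome genes were higher and 19 lower in mock embryos. For these unadjusted counts no share of all probe sets at the same threshold is given, so they stand without a background. The median difference was -0.35 for the chain and -0.52 for the ribosome in anti-mir-34 embryos, beside -0.33 over all genes. In mock embryos it was -0.22 for the chain and -0.27 for the ribosome, beside -0.22 over all genes. The medians of the chain thus lay next to those of all genes.

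Arrays of the anti-mir-34 and mock embryos are separate, so the lists could be set side by side. Of 52 members that fell in anti-mir-34 embryos, 22 also fell in mock embryos (42.3%), and these were 88% of the 25 that fell there. Of 24 that rose, malsu1 among them, 8 also rose in mock embryos (33.3%), or 72.7% of the 11 that rose there. The overlap over all probe sets was not counted for this step, so these shares stand without a background. In this step 0 members were called in opposite directions. With both mock arrays named above left out, 13 chain genes rose and 16 fell in mock embryos, and 3 ribosome genes rose and 8 fell. The share of all probe sets in that fit was not counted.

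Among the assembly genes of complex IV, those for copper delivery fell and the haem O synthase gene rose. The gene cox17, which codes for the copper chaperone of the oxidase, had 6.58, 6.77 and 6.14 in anti-mir-34 embryos of 7 hpf, against 8.99, 9.45 and 9.44 at 1 hpf. In mock embryos it had 7.37, 7.95 and 6.86 at 7 hpf, against 8.86, 9.60 and 8.89 at 1 hpf. It fell by 2.80 ± 0.26 (SE, n = 3 per age; adjusted p = 8.24e-08) in anti-mir-34 embryos and by 1.72 ± 0.26 (5.39e-05) in mock embryos, with no overlap between the ages. cox11, which delivers copper to the catalytic subunit, fell by 1.84 ± 0.51 in anti-mir-34 embryos and by 2.28 ± 0.51 in mock embryos. Its call in anti-mir-34 embryos was lost without replicate 2 of 1 hpf (-1.31, adjusted p = 0.0559), and its level was at or below 4.64 at 7 hpf.

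cox10, for haem O synthase, went the other way. It had 6.35, 5.21 and 5.87 in anti-mir-34 embryos of 7 hpf, against 3.15, 3.48 and 3.29 at 1 hpf, and 5.20, 3.69 and 6.12 in mock embryos of 7 hpf, against 3.21, 3.40 and 3.09 at 1 hpf. It rose by 2.50 ± 0.45 in anti-mir-34 embryos and by 1.77 ± 0.45 in mock embryos, from dim levels. Without mock replicate 3 of 7 hpf the mock call was lost (adjusted p = 0.0560). Its second, dimmer probe set differed by 0.15 (adjusted p = 0.845) and by -0.51 (adjusted p = 0.515) in the same comparisons, and with the mean of both probe sets the mock call was lost (0.63, adjusted p = 0.312). The haem A synthase gene cox15 fell in anti-mir-34 embryos, by 1.37 ± 0.33 (adjusted p = 0.00255), and differed by -0.79 ± 0.33 in mock embryos (0.0908).

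Structural subunits of complex IV included genes that rose early. cox6b2, 1 of 2 listed genes for the subunit that faces cytochrome c, had 8.86, 8.53 and 9.0 in anti-mir-34 embryos of 7 hpf, against 8.15, 7.36 and 7.08 at 1 hpf. Mock embryos had 8.87, 8.75 and 9.09 at 7 hpf, against 7.42, 6.74 and 7.42 at 1 hpf, and the ages did not overlap in either injection. It rose by 1.27 ± 0.25 and by 1.71 ± 0.25. Another subunit gene, cox7b, rose by 0.85 ± 0.28 in anti-mir-34 embryos and by 1.5 ± 0.28 in mock embryos. The gene cox8a rose by 1.76 ± 0.38 in anti-mir-34 embryos and differed by 0.84 ± 0.38 in mock embryos (adjusted p = 0.117), where it passed without replicate 2 of 7 hpf (0.0478). cox7a2a fell, by 0.97 ± 0.22 in anti-mir-34 embryos and by 0.96 ± 0.22 in mock embryos.

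The ATP synthase was split in the same way. The gene of the gamma subunit of its rotor, atp5f1c, had 7.86, 8.20 and 7.66 in anti-mir-34 embryos of 7 hpf, against 10.12, 9.70 and 9.96 at 1 hpf. In mock embryos it had 8.89, 9.41 and 7.69 at 7 hpf, against 9.97, 9.66 and 9.71 at 1 hpf, so replicate 3 of 7 hpf was lowest. It fell by 2.02 ± 0.29 in anti-mir-34 embryos and by 1.12 ± 0.29 in mock embryos, a call lost without that replicate (adjusted p = 0.0561). atp5mc1, one of the genes for the membrane ring of c subunits, fell by 1.66 ± 0.27 and by 0.95 ± 0.27. Its mock call was lost without replicate 3 of 1 hpf or of 7 hpf (adjusted p = 0.0664 and 0.111). The other c ring genes did not fall in mock embryos: atp5mc3a rose by 0.55 ± 0.17 (adjusted p = 0.0201), and atp5mc3b differed by -0.48 ± 0.29 (0.256). The gene atp5f1b, which codes for the catalytic beta subunit, fell by 1.39 ± 0.23 in anti-mir-34 embryos. In mock embryos it differed by -0.56 ± 0.23 (adjusted p = 0.0866). The genes that rose in both injections were atp5mf, atp5md and atp5if1a, with the mock call of atp5md lost without replicate 1 or 3 of either age (adjusted p from 0.0589 to 0.135). The subunit f gene atp5mf rose by 1.41 ± 0.28 and 1.15 ± 0.28 in anti-mir-34 and mock embryos. atp5if1a, whose product inhibits ATP hydrolysis by the enzyme, rose by 2.13 ± 0.26 in anti-mir-34 embryos and by 1.06 ± 0.26 in mock embryos.

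In complex I, 14 genes fell and 8 rose in anti-mir-34 embryos, and 6 fell and 3 rose in mock embryos. The membrane arm subunit gene ndufb5 had 6.55, 6.40 and 6.72 in anti-mir-34 embryos of 7 hpf, against 8.28, 8.20 and 8.06 at 1 hpf, and 6.79, 6.58 and 6.48 in mock embryos of 7 hpf, against 8.27, 8.04 and 7.81. The accessory subunit gene ndufa6 rose, by 1.79 ± 0.31 in anti-mir-34 embryos and by 1.2 ± 0.31 in mock embryos, a call lost without mock replicate 3 of 1 hpf (adjusted p = 0.0540). The gene ndufv2, of the module that takes electrons from NADH, rose by 1.32 ± 0.35 and by 1.08 ± 0.35. Its mock call was lost without the intensity trend (adjusted p = 0.0608), with the mean of its probe sets (0.0756) and with only the arrays of the 2 ages in the fit (0.0587). It was also lost without replicate 1 or 3 of either age (from 0.0923 to 0.133). The second probe set of ndufv2 differed by 0.44 (adjusted p = 0.287) in anti-mir-34 embryos and by 0.41 (0.388) in mock embryos.

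Complex II couples the citric acid cycle to the chain. Its membrane anchor gene sdhc fell by 1.38 ± 0.24 in anti-mir-34 embryos, with 6.07, 5.67 and 5.74 at 7 hpf, against 7.52, 7.46 and 6.63 at 1 hpf. It fell by 0.86 ± 0.24 in mock embryos, with 6.38, 6.74 and 6.19 at 7 hpf, against 7.44, 7.28 and 7.15, a call lost without replicate 3 of 7 hpf (adjusted p = 0.0572). The gene sdha, for the flavoprotein subunit, differed by -0.18 ± 0.25 and 0.04 ± 0.25 and did not pass the test in either. In complex III, uqcrq fell by 0.62 ± 0.24 (adjusted p = 0.0484) and by 0.89 ± 0.24. The mild anti-mir-34 call was lost with the replicate number as a block (0.0583), without the intensity trend (0.0950) and with only the arrays of the 2 ages (0.135). It was lost as well without anti-mir-34 replicate 1 or 2 of 1 hpf or replicate 2 of 7 hpf (0.142 to 0.251), and the mock call without replicate 2 of 1 hpf (0.0529). The Rieske iron-sulfur protein gene uqcrfs1 fell in anti-mir-34 embryos, by 1.19 ± 0.27, and differed by -0.40 ± 0.27 in mock embryos.

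Ribosome genes that fell in both injections included mrpl12, mrpl48 and mrps30. The gene mrpl12, which codes for a protein of the large subunit's stalk, had 6.95, 6.56 and 6.86 in anti-mir-34 embryos of 7 hpf, against 8.26, 9.11 and 8.10 at 1 hpf. Mock embryos had 7.09, 7.27 and 6.72, against 8.70, 8.75 and 8.36, and the ages did not overlap in either injection. It fell by 1.70 ± 0.24 and by 1.58 ± 0.24 (adjusted p = 1.48e-05 and 6.11e-05). mrpl48 fell by 2.09 ± 0.28 and by 1.1 ± 0.28, and mrps30 by 1.12 ± 0.30 and by 0.85 ± 0.30. The mock call of mrps30 (adjusted p = 0.0470) was lost without any 1 mock array except replicate 2 of 7 hpf (0.0689 to 0.246). mrps12, which codes for a protein of the decoding site, fell by 0.86 ± 0.32 in anti-mir-34 embryos (adjusted p = 0.0394), with 6.08, 5.48 and 6.23 at 7 hpf, against 6.93, 6.92 and 6.5 at 1 hpf. It fell by 1.64 ± 0.32 in mock embryos, with 5.34, 4.40 and 5.65 at 7 hpf, against 6.80, 7.33 and 6.18 at 1 hpf. The large subunit genes mrpl42 and mrpl20 rose in anti-mir-34 embryos, by 1.81 ± 0.36 and 1.13 ± 0.32, and differed by 0.96 ± 0.36 (adjusted p = 0.0570) and 0.46 ± 0.32 (0.317) in mock embryos.

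Between 7 and 24 hpf the chain genes rose together. In anti-mir-34 embryos 70 of 90 chain genes rose and 2 fell, and in mock embryos 60 rose and 1 fell. Over all probe sets 16.5% rose and 19.4% fell in anti-mir-34 embryos, and 19.5% rose and 23.5% fell in mock embryos. The ribosome had 21 of 60 genes higher and 1 lower in anti-mir-34 embryos, and 24 higher and 3 lower in mock embryos. Without malsu1 these were 20 and 23 genes higher. The median difference of the chain was 1.27 in anti-mir-34 and 1.3 in mock embryos, that of the ribosome 0.64 and 0.46, and that of all genes -0.16 and -0.20.

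The chain genes that rose were largely the same in both injections. Of 70 that rose in anti-mir-34 embryos, 59 rose in mock embryos as well (84.3%), and these were 98.3% of the 60 that rose there. For the ribosome 17 genes were shared, malsu1 among them, 81% of the anti-mir-34 list and 70.8% of the mock list. The overlap over all probe sets was not counted for this step either, so these shares also stand without a background. In this step too, 0 members were called in opposite directions. With both mock arrays that stood apart left out, 58 chain genes rose and 0 fell in mock embryos, and 20 ribosome genes rose and 2 fell. Without replicate 3 of 24 hpf, 65 chain genes and 19 ribosome genes rose in anti-mir-34 embryos. The share of all probe sets was not counted in these smaller fits.

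**Figure D2:**
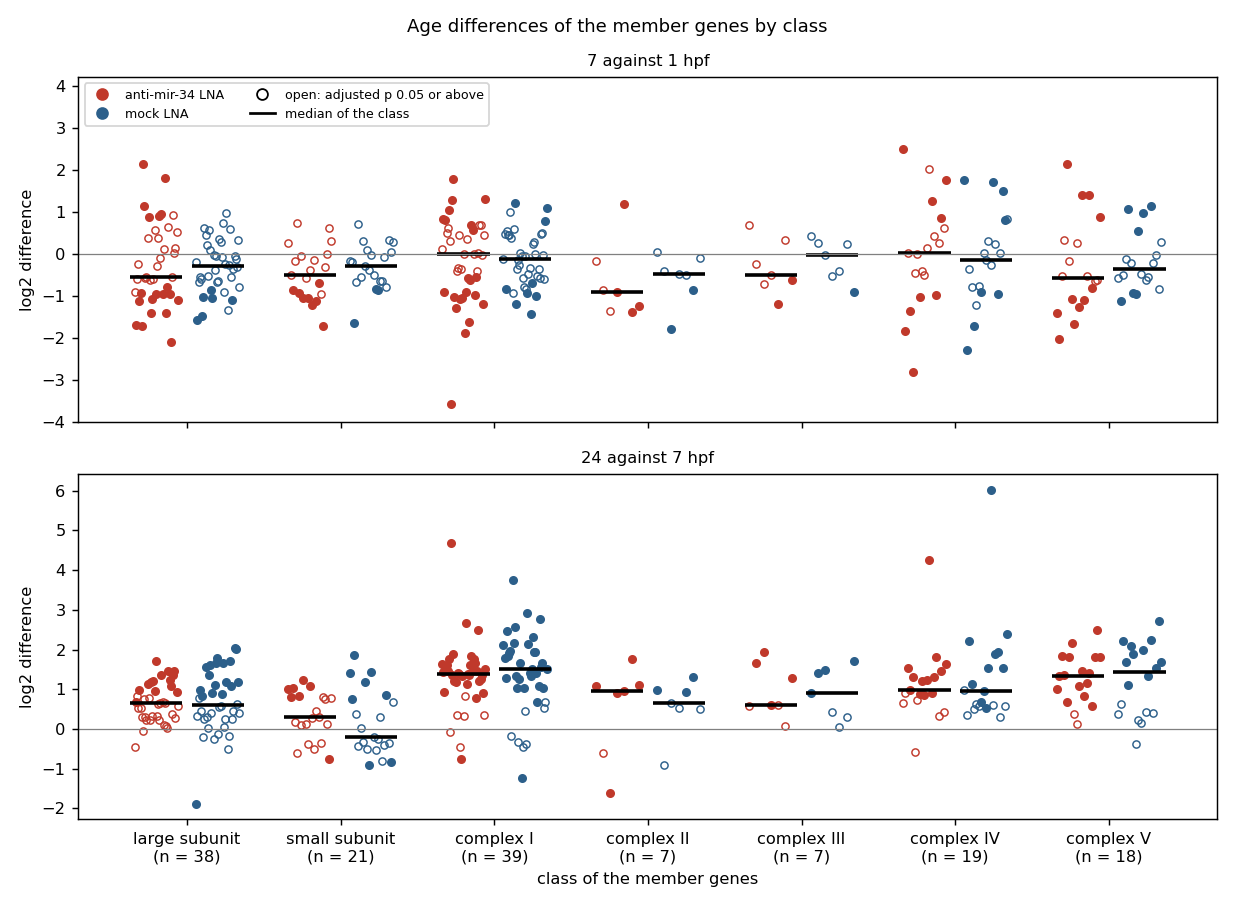
Log2 difference of each gene between ages (top, 7 minus 1 hpf; bottom, 24 minus 7 hpf), by class, with red for anti-mir-34 LNA and blue for mock LNA embryos. Each point is 1 gene, filled where the adjusted p was under 0.05, black lines are class medians, and malsu1 is left out because it is alone in its class. In the bottom panel the medians of complex I, 1.39 and 1.51, lie highest beside those of complex V, and the small subunit medians, 0.30 and -0.19, lowest.

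Other measures moved with this step. The 3′ minus 5′ difference of the GAPDH control probe sets, a sign of RNA quality and labelling, was 1.21, 1.77 and 1.55 in anti-mir-34 embryos of 24 hpf and 1.19, 1.72 and 0.99 in mock embryos, and lay between -1.40 and 0.78 on the 12 earlier arrays. That of the actin control probe sets was 3.84 to 4.43 at 24 hpf. On the 12 earlier arrays it ranged from -1.77 (anti-mir-34 replicate 3 of 1 hpf) to 5.30 (mock replicate 2 of 1 hpf), so the ages overlapped. All 10 skeletal muscle markers rose in both injections, with medians of up to 10.41 on the arrays of 24 hpf and of 0.58 to 1.57 at 7 hpf, and so did 3 of 3 heart and 4 of 4 embryonic blood markers, with the lower values of anti-mir-34 replicate 3 given above. Of 73 genes for cytosolic ribosomal proteins, 38 rose and 1 fell in anti-mir-34 embryos, and 52 rose and 1 fell in mock embryos. The part of RNA quality and tissue makeup in the rise of the chain genes was not tested. In whole embryos, more cells of a kind and more RNA per cell cannot be told apart.

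In complex I, 32 of 39 genes rose and 1 fell in anti-mir-34 embryos, and 31 rose and 1 fell in mock embryos. Of its 33 subunit genes 30 rose in anti-mir-34 embryos and 29 in mock embryos, and 0 fell in either, also at an unadjusted p under 0.05 in limma's test. The share of all probe sets at the unadjusted threshold is not given here. The gene ndufb10, of the membrane arm, had 8.09, 8.09 and 8.20 in anti-mir-34 embryos of 24 hpf, against 5.38, 5.74 and 5.28 at 7 hpf. Mock embryos had 8.27, 8.22 and 8.26 at 24 hpf, against 5.36, 5.46 and 5.19 at 7 hpf. It rose by 2.66 ± 0.21 (adjusted p = 1.05e-08) and by 2.91 ± 0.21 (2.38e-09), and the 3 arrays of each age lay close together. ndufs4, an accessory subunit gene that is mutated in human Leigh syndrome, had 7.72, 7.67 and 7.58 in anti-mir-34 embryos of 24 hpf, against 5.19, 4.86 and 5.45 at 7 hpf. It rose by 2.49 ± 0.23 there and by 2.78 ± 0.23 in mock embryos, which had 7.53, 7.68 and 7.87, against 4.94, 4.69 and 5.13.

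The paralogues ndufa4a and ndufa4b followed different courses. ndufa4a stayed between 8.51 and 9.41 on all 18 arrays, and its differences of -0.06 ± 0.20 and -0.17 ± 0.20 did not pass the test. ndufa4b was called higher in both injections, by 4.69 ± 0.94 and 3.75 ± 0.94, but it was dim at every age, with means of 2.75 and 2.27 at 24 hpf and below 0 at 7 hpf. After 16 was added to each signal on the linear scale, which damps dim values, the differences were 0.49 and 0.35, still past the threshold. The other subunit genes that did not pass in either injection were ndufab1a, of the mitochondrial acyl carrier protein, and ndufv1, of the NADH-binding module. A further gene, ndufs8a, did not pass in mock embryos (0.53, adjusted p = 0.0598).

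Of 6 complex I assembly factors, ndufaf1 and ndufaf5 rose in both injections. The difference between assembly factors and subunits was not tested. ndufaf2 fell by 1.22 ± 0.30 in mock embryos, where its call was lost without the 2 mock arrays that stood apart (-0.86, adjusted p = 0.0581), and differed by -0.46 in anti-mir-34 embryos (adjusted p = 0.262). ndufaf4 fell by 0.75 ± 0.29 in anti-mir-34 embryos (adjusted p = 0.0457) and differed by -0.46 in mock embryos (0.208). Its call was lost with 16 added (0.0529) without the intensity trend (0.0531) and without any 1 of the 6 arrays (0.0613 to 0.135). Over all 16 assembly factors and regulators of the chain, 8 rose and 2 fell in anti-mir-34 embryos and 6 rose and 1 fell in mock embryos. Over the 74 chain subunits, 62 rose in anti-mir-34 embryos and 54 in mock embryos, and 0 fell. At an unadjusted p under 0.05 in limma's test, these were 63 and 60 higher and 0 lower. The share of all probe sets at that threshold is not given here, so these counts stand without a background.

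All 4 subunit genes of complex II rose in anti-mir-34 embryos, and 3 of 4 in mock embryos. sdhc had 7.53, 7.57 and 7.69 in anti-mir-34 embryos of 24 hpf, against 6.07, 5.67 and 5.74 at 7 hpf, and 7.83, 7.62 and 7.79 in mock embryos, against 6.38, 6.74 and 6.19. It rose by 1.77 ± 0.24 and by 1.31 ± 0.24, above the spread between arrays. sdha rose by 1.09 ± 0.25 and by 0.97 ± 0.25, and sdhb, the iron-sulfur subunit gene, by 0.96 ± 0.32 and 0.92 ± 0.32. The calls of sdhb were lost without the intensity trend (adjusted p = 0.0539 and 0.0545) and, in anti-mir-34 embryos, without 7 hpf replicate 3 or any 1 array of 24 hpf (0.0515 to 0.0968). In mock embryos its call was lost without 7 hpf replicate 3 or 24 hpf replicate 1 or 3 (0.0528 to 0.106), and without both mock arrays that stood apart (0.0641). The anchor gene sdhdb rose by 1.12 ± 0.34 in anti-mir-34 embryos and differed by 0.51 ± 0.34 in mock embryos (adjusted p = 0.251). The anti-mir-34 call was lost without replicate 1 or 3 of 7 hpf or replicate 1 of 24 hpf (0.0555 to 0.0752). The dim assembly factor gene sdhaf3 fell in anti-mir-34 embryos by 1.62 ± 0.57, with 0.29, 0.15 and -0.34 at 24 hpf, against 1.97, 1.22 and 1.77 at 7 hpf. Its call was lost with 16 added (-0.17, adjusted p = 0.118) and without replicate 1 or 3 of 7 hpf or replicate 2 or 3 of 24 hpf (0.0589 to 0.103).

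In complex III, 4 of 7 genes rose in each injection and 0 fell. The core protein genes uqcrc1 and uqcrc2a rose by 1.66 ± 0.25 and 1.94 ± 0.31 in anti-mir-34 embryos, and by 1.41 ± 0.25 and 1.49 ± 0.31 in mock embryos. The second, dim probe set of uqcrc2a differed by 1.92 (adjusted p = 0.0113) in anti-mir-34 embryos and by 0.22 (0.786) in mock embryos. uqcrq had 7.95, 8.44 and 8.21 in anti-mir-34 embryos of 24 hpf, against 7.13, 6.41 and 7.22 at 7 hpf, and 8.26, 8.22 and 8.34 in mock embryos, against 6.65, 6.38 and 6.67. uqcrfs1 differed by 0.61 ± 0.27 (adjusted p = 0.0852) and 0.05 ± 0.27.

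Complex IV had 13 of 19 genes higher in anti-mir-34 embryos and 11 in mock embryos, and 0 lower. cox6b1 had 5.43, 6.82 and 4.92 in anti-mir-34 embryos of 24 hpf, against 2.38, 0.53 and 1.47 at 7 hpf, and 5.15, 6.70 and 6.48 in mock embryos of 24 hpf, against 0.06, -1.16 and 1.36 at 7 hpf. It was dim at 1 and 7 hpf and above the median of all values at 24 hpf. Its differences of 4.26 ± 0.85 and 6.02 ± 0.85 became 1.89 and 2.32 with 16 added. Whether the probe sets of paralogues cross-hybridise was not tested. Its paralogue cox6b2, already high at 7 hpf, rose by 0.91 ± 0.25 in anti-mir-34 embryos and differed by 0.61 ± 0.25 in mock embryos (adjusted p = 0.0503), where it passed without replicate 3 of 7 hpf (0.0455).

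cox8a had 9.29, 9.25 and 8.99 in anti-mir-34 embryos of 24 hpf, against 7.30, 7.34 and 7.95 at 7 hpf, and 9.29, 9.24 and 9.21 in mock embryos, against 6.67, 6.29 and 7.64. It rose by 1.65 ± 0.38 and by 2.38 ± 0.38. cox7a2a rose by 1.82 ± 0.22 and 1.94 ± 0.22, and cox6a1 by 1.23 ± 0.27 and 1.53 ± 0.27. The assembly factor gene cox14 rose by 1.53 ± 0.33 and 2.21 ± 0.33. The genes cox4i2 and cox4i1l, named for forms of subunit 4, were dim at all ages, with means from -0.21 to 1.45, and did not pass in either injection. cox7a2l, known in mammals for joining complexes III and IV, differed by 0.33 ± 0.22 and 0.31 ± 0.22.

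In complex V, 16 of 18 genes rose in anti-mir-34 embryos and 11 in mock embryos, and 0 fell. The peripheral stalk gene atp5pd had 8.72, 8.74 and 8.68 in anti-mir-34 embryos of 24 hpf, against 6.21, 5.80 and 6.67 at 7 hpf. Mock embryos had 8.67, 8.82 and 8.95, against 6.20, 5.90 and 6.20. It rose by 2.49 ± 0.30 (adjusted p = 2.28e-06) and by 2.71 ± 0.30 (6.38e-07). The inhibitor gene atp5if1b rose by 1.82 ± 0.29 and by 2.10 ± 0.29. Of the c ring genes, atp5mc1 and atp5mc3a did not pass in either injection. The differences of atp5mc1 were 0.38 ± 0.27 and -0.39 ± 0.27 and those of atp5mc3a 0.12 ± 0.17 and 0.23 ± 0.17, and without mock replicate 3 of 7 hpf that of atp5mc1 passed as lower in mock embryos (adjusted p = 0.0274). The third gene, atp5mc3b, rose by 1.07 ± 0.29 in anti-mir-34 embryos and differed by 0.14 ± 0.29 in mock embryos (adjusted p = 0.733).

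**Figure D3:**
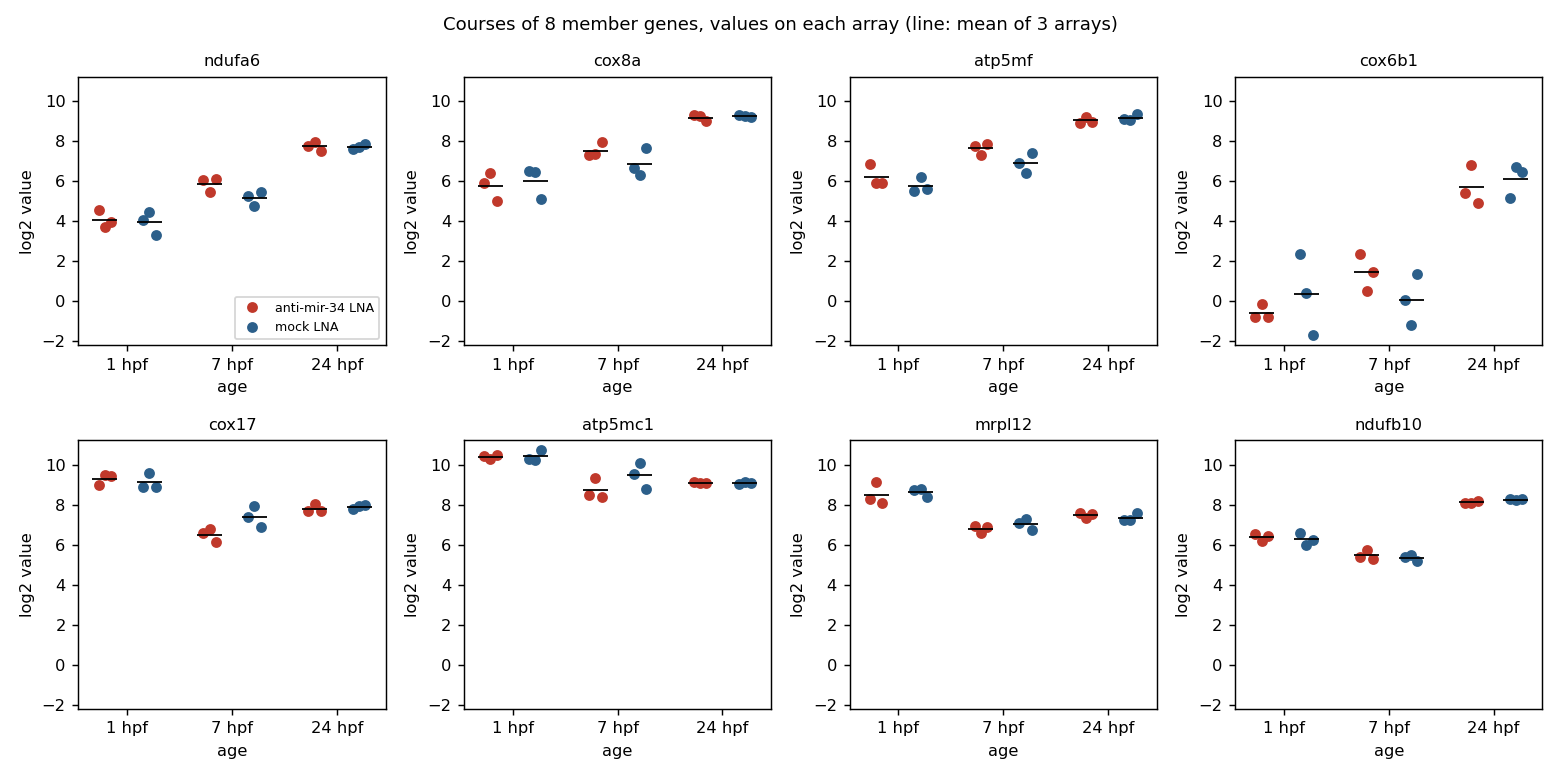
Log2 value of 8 chain and ribosome genes on each of the 18 arrays, by age in hours post fertilization (hpf), with red for anti-mir-34 LNA and blue for mock LNA. Each point is 1 array and lines are means of 3 arrays. ndufa6, cox8a and atp5mf have a higher mean at each later age, though cox8a did not pass from 1 to 7 hpf in mock embryos, cox6b1 stands above 3.68 at 24 hpf alone, cox17, atp5mc1 and mrpl12 are highest at 1 hpf, and ndufb10 dips at 7 hpf before its highest level at 24 hpf.

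The subunits of the ribosome differed in their counts. Of 38 large subunit genes 14 rose and 0 fell in anti-mir-34 embryos, and 17 rose and 1 fell in mock embryos. Of 21 small subunit genes 6 rose in each injection, and 1 fell in anti-mir-34 and 2 in mock embryos. Median differences were 0.66 and 0.61 for the large subunit, and 0.30 and -0.19 for the small subunit. The difference between the subunits was not tested.

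mrpl35 rose by 1.70 ± 0.29 in anti-mir-34 embryos and by 1.80 ± 0.29 in mock embryos, and mrpl53 by 1.47 ± 0.35 and 2.00 ± 0.35. mrpl52 had 5.62, 5.94 and 5.22 in anti-mir-34 embryos of 24 hpf, against 4.34, 4.01 and 4.36 at 7 hpf, and 5.50, 5.18 and 5.85 in mock embryos, against 3.70, 3.07 and 3.66. In the small subunit mrps12 had 6.74, 7.24 and 6.90 in anti-mir-34 embryos of 24 hpf, against 6.08, 5.48 and 6.23 at 7 hpf, and rose by 1.03 ± 0.32. Mock embryos had 6.86, 7.07 and 7.0, against 5.34, 4.40 and 5.65, and it rose by 1.85 ± 0.32. The gene mrps24 rose by 1.08 ± 0.35 and 1.43 ± 0.35. In anti-mir-34 embryos mrps12 was not called without replicate 2 of 7 or of 24 hpf (adjusted p = 0.0902 and 0.0724), nor mrps24 without replicate 1 or 2 of 7 hpf or replicate 2 of 24 hpf (0.0509 to 0.0806). The early and the late arrays of these genes did not overlap.

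mrps6 fell in both injections, by 0.76 ± 0.28 (adjusted p = 0.0430) and by 0.84 ± 0.28 (0.0219). It had 5.65, 5.63 and 5.64 in anti-mir-34 embryos of 24 hpf, against 6.37, 5.99 and 6.84 at 7 hpf, and 5.51, 5.48 and 5.23 in mock embryos, against 5.83, 6.02 and 6.89. The call was lost without the intensity trend in anti-mir-34 embryos (0.0675) and with only the arrays of the 2 ages in mock embryos (0.0647). It was also lost without any 1 anti-mir-34 array except replicate 2 of 7 hpf (0.0852 to 0.201), and without mock replicate 3 of 7 or of 24 hpf (0.145 and 0.0752). The gene mrps23 fell by 0.91 ± 0.28 in mock embryos, a call lost without replicate 2 of 7 hpf (0.0714). The gene mrpl1 fell by 1.88 ± 0.52 in mock embryos, where replicate 2 of 24 hpf was lowest, with 4.16, 1.28 and 2.71, against 4.51, 4.46 and 4.82 at 7 hpf. Without that replicate its difference was -1.16 and the call was lost (adjusted p = 0.0540).

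**Figure D4:**
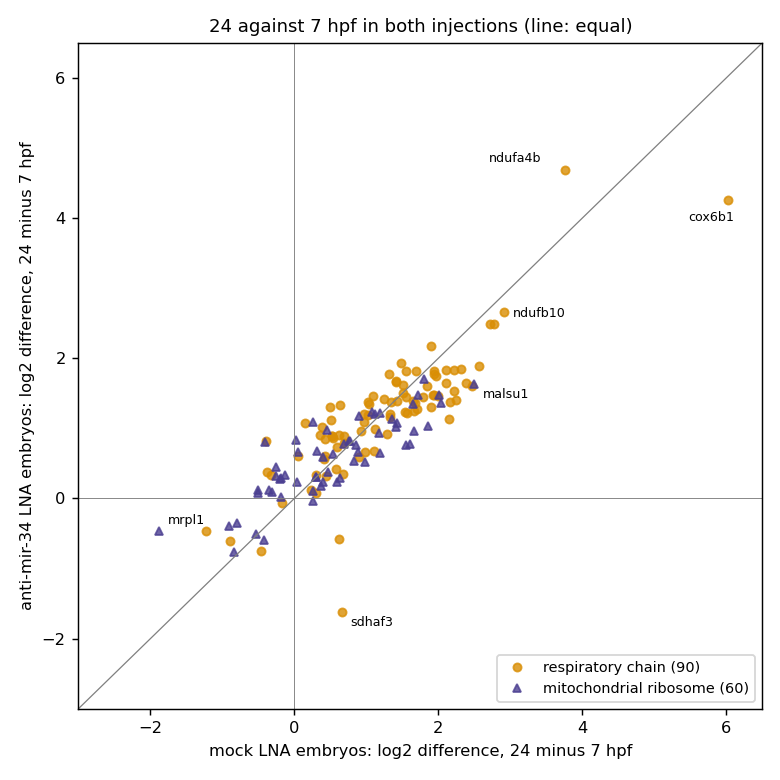
Log2 difference between 24 and 7 hpf of each of the 150 genes in anti-mir-34 LNA embryos (vertical axis) against the same difference in mock LNA embryos (horizontal axis), with orange circles for the chain and purple triangles for the ribosome. The diagonal marks equal differences, and 0 genes were called in opposite directions. cox6b1 and ndufa4b, both dim at 7 hpf, lie far out.

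Set against the first hour, the level at 24 hpf was higher for most chain genes and mixed for the ribosome. These differences share their arrays with the steps above and add up from them. In anti-mir-34 embryos 53 chain genes were higher and 6 lower at 24 than at 1 hpf, and in mock embryos 55 and 7. Over all probe sets 26.7% were higher and 30.2% lower in anti-mir-34 embryos, and 26.3% and 30.0% in mock embryos. For the ribosome 17 were higher and 11 lower in anti-mir-34 embryos, and 20 and 13 in mock embryos. malsu1 is among the higher genes in both injections, and these counts are not given without it. Without anti-mir-34 replicate 3 of 24 hpf, 52 chain genes were higher and 6 lower, and 17 ribosome genes were higher and 8 lower. Without both mock arrays that stood apart, 54 chain genes were higher and 6 lower, and 19 ribosome genes were higher and 9 lower. In these smaller fits the share of all probe sets was not counted. The small subunit had 2 genes higher and 5 lower in anti-mir-34 embryos, and 4 and 6 in mock embryos.

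Among chain genes, apart from cox6b1 with its dim start, ndufa6 stood furthest above its first level in both injections. It had 7.78, 7.98 and 7.51 in anti-mir-34 embryos of 24 hpf, against 4.54, 3.73 and 3.96 at 1 hpf, and 7.59, 7.70 and 7.88 in mock embryos, against 4.07, 4.47 and 3.34. The differences were 3.68 ± 0.31 and 3.76 ± 0.31. The gene cox8a was higher by 3.41 ± 0.38 and 3.22 ± 0.38, and atp5mf by 2.82 ± 0.28 and 3.39 ± 0.28. Both inhibitor genes of complex V were higher, atp5if1a by 2.81 ± 0.26 and 2.17 ± 0.26, and atp5if1b by 1.65 ± 0.29 and 1.89 ± 0.29.

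The chain genes that were lower at 24 than at 1 hpf were mainly assembly factors. In anti-mir-34 embryos 5 of 16 assembly factors and regulators were lower, and 1 of 74 subunits, atp5mc1. In mock embryos 6 of 16 and 1 of 74 were lower, again with atp5mc1 as the subunit. Over all probe sets 30.2% were lower in anti-mir-34 embryos and 30.0% in mock embryos. The shares of factors that were lower thus lay near those of all probe sets, and those of subunits below them. Other factor genes were higher in mock embryos: cox10 by 2.75, cox14 by 1.87 and ndufaf1 by 1.68, beside atp5if1a and atp5if1b given above. The second, dimmer probe sets of cox10 and ndufaf1 differed there by 0.86 and 0.66 and did not pass limma's test (adjusted p = 0.169 and 0.173). atp5mc1 had 9.12, 9.08 and 9.10 in anti-mir-34 embryos of 24 hpf, against 10.41, 10.25 and 10.48 at 1 hpf, and 9.01, 9.13 and 9.09 in mock embryos, against 10.26, 10.23 and 10.73. It was lower by 1.28 ± 0.27 and 1.33 ± 0.27. The copper chaperone gene cox17 was lower by 1.49 ± 0.26 and 1.23 ± 0.26, ndufaf2 by 1.53 ± 0.30 and 1.28 ± 0.30, and sdhaf2, which helps attach flavin to SDHA, by 1.46 ± 0.37 and 1.29 ± 0.37. In the ribosome, mrpl12 was lower by 1.02 ± 0.24 and 1.26 ± 0.24, and mrps23 by 1.42 ± 0.28 and 1.28 ± 0.28.

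The injections were compared at each age, the question being which of these genes differ when mir-34 is targeted. At 1 hpf, 3 of 150 genes passed, all lower in anti-mir-34 embryos: malsu1, sdhb and mrpl2. Without malsu1 this is 2 of 149. Over all probe sets 1.23% passed, 0.806% lower and 0.426% higher. At an unadjusted p under 0.05 in limma's test, 6 of the 150 genes were lower and 5 higher, and 9.83% of all probe sets passed. The median difference was -0.01 for the ribosome and 0.11 for the chain, beside 0.04 over all genes. The groups did not overlap for 4 ribosome and 7 chain genes, where 12.7% of all probe sets had groups that did not overlap. malsu1 is among the 6 lower genes and among these 4 ribosome genes.

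malsu1 codes for a factor that in human cells binds the large subunit of the mitochondrial ribosome during its assembly. It had 0.01, 1.09 and 0.55 in anti-mir-34 embryos of 1 hpf, against 3.72, 3.67 and 3.40 in mock embryos. The anti-mir-34 values were dim and the mock values near the median of all values, 3.68, and the groups did not overlap. The difference was -3.05 ± 0.35. With 16 added it was -0.68 and no longer passed (adjusted p = 0.0616), nor did it with only the 6 arrays of 1 hpf in the fit (0.201). At 7 hpf the levels were 4.64, 4.32 and 4.84 in anti-mir-34 embryos, against 3.74, 3.48 and 4.45 in mock embryos (difference 0.71 ± 0.35). At 24 hpf they were 6.10, 6.36 and 6.24, against 6.20, 6.20 and 6.75 (-0.15 ± 0.35). The age differences of malsu1, 4.05 ± 0.35 from 1 to 7 hpf in anti-mir-34 embryos and 0.29 ± 0.35 in mock embryos, rest on the same arrays of 1 hpf. In a test of whether the injection difference changed with age, 0.0968% of all probe sets passed, and malsu1 was the 1 member among them. That call was lost with 16 added, without mock replicate 1 of 1 hpf, and without both mock arrays that stood apart.

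sdhb had 5.21, 6.70 and 5.60 in anti-mir-34 embryos of 1 hpf, against 8.14, 7.28 and 7.30 in mock embryos. The difference was -1.73 ± 0.32 (adjusted p = 0.00672), with the groups apart but replicate 2 of the anti-mir-34 embryos close to the mock range. At 7 hpf it had 7.20, 7.22 and 6.68 in anti-mir-34 embryos, against 7.36, 7.22 and 6.64 in mock embryos, and at 24 hpf 8.01, 7.96 and 7.99, against 8.04, 7.95 and 7.97. The differences at those ages were -0.04 ± 0.32 and -0.00 ± 0.32. The call at 1 hpf was lost without mock replicate 1 (-1.45, adjusted p = 0.0510), without the intensity trend (0.0620) and with only the 6 arrays of 1 hpf in the fit (0.292). The other subunits of complex II, sdha, sdhc and sdhdb, did not pass at 1 hpf.

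mrpl2, of the large subunit, had 3.77, 4.69 and 4.78 in anti-mir-34 embryos of 1 hpf, against 5.43, 5.58 and 5.99 in mock embryos. The difference was -1.25 ± 0.27 (adjusted p = 0.0198) and the groups did not overlap. The call was lost without anti-mir-34 replicate 1 (-0.93, adjusted p = 0.105), without mock replicate 3 (-1.09, 0.0999), without the intensity trend (0.0791) and with only the 6 arrays (0.357). At 7 hpf mrpl2 had 6.64, 6.42 and 6.55 in anti-mir-34 embryos, against 6.49, 6.41 and 5.95 in mock embryos, and at 24 hpf 6.39, 6.61 and 6.49, against 6.52, 6.69 and 6.43. Between 1 and 7 hpf in anti-mir-34 embryos mrpl2 rose by 2.13 ± 0.27 and sdhb by 1.19 ± 0.32, differences that use the same arrays of 1 hpf.

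mrpl21 came next to the threshold, on the higher side. It had 6.74, 6.09 and 6.31 in anti-mir-34 embryos of 1 hpf, against 5.37, 5.21 and 5.29 in mock embryos, a difference of 1.09 ± 0.28 (adjusted p = 0.0599), with no overlap. It passed with 16 added (0.0433), with dim probe sets left out (0.0348) and without anti-mir-34 replicate 2 (0.0308). The complex I gene ndufa9a differed by 0.62 ± 0.21 (adjusted p = 0.205).

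**Figure D5:**
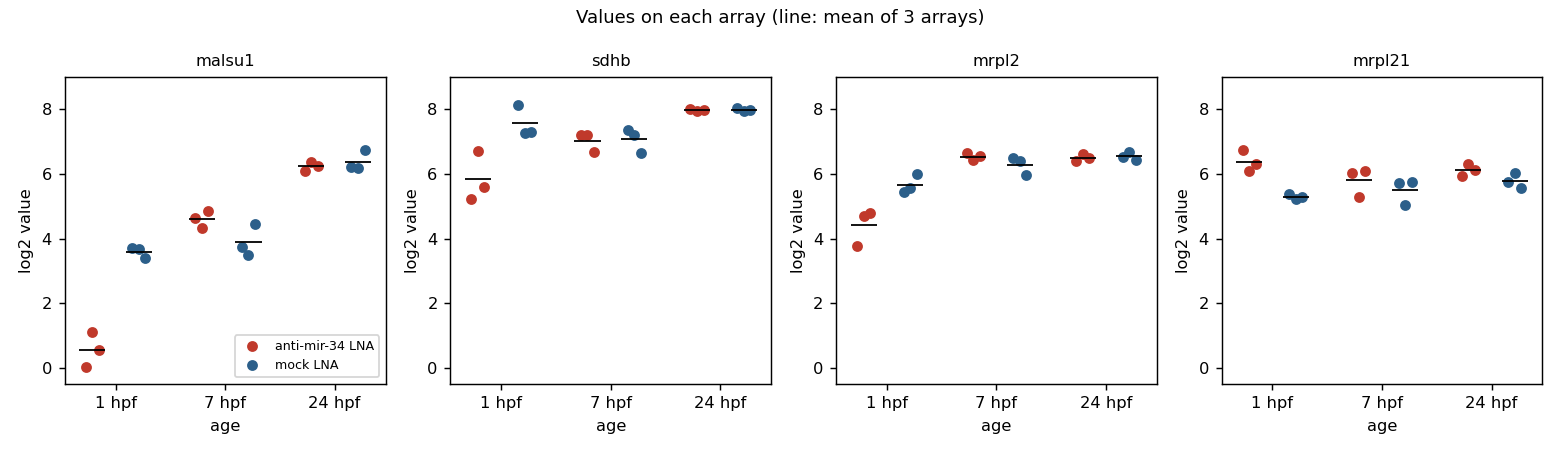
Log2 value of malsu1, sdhb, mrpl2 and mrpl21 on each of the 18 arrays, by age in hours post fertilization (hpf), with red for anti-mir-34 LNA and blue for mock LNA. Each point is 1 array and lines are means of 3 arrays. At 1 hpf the anti-mir-34 arrays of malsu1, 0.01 to 1.09, lie below the mock arrays, 3.40 to 3.72, and at 24 hpf both groups lie between 6.10 and 6.75.

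At 7 hpf, 0 of 150 genes passed in limma's test, where 0.0129% of all probe sets passed. At an unadjusted p under 0.05 there were 24 (9 of the ribosome and 15 of the chain), beside 12.4% of all probe sets. The groups did not overlap for 29 of the 150, beside 15.5% of all probe sets. The smallest p-values belonged to mrpl19, cox17, atp5mc3b, mrpl48 and ndufb2. The large subunit gene mrpl19 had 5.01, 5.17 and 5.16 in anti-mir-34 embryos, against 5.82, 6.05 and 6.05 in mock embryos (-0.86 ± 0.25, adjusted p = 0.179). The second probe set of mrpl19, with a mean over 18 arrays of 5.89 beside 6.02, differed by -0.44 (adjusted p = 0.624). cox17 had 6.58, 6.77 and 6.14, against 7.37, 7.95 and 6.86 (-0.90 ± 0.26, adjusted p = 0.180). ndufb2 was on the other side, with a difference of 0.87 ± 0.30 (adjusted p = 0.255).

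The stage markers of each kind leaned the same way at this age, but their medians by array overlapped between the injections. The gastrula medians are given above. Those of the oocyte and maternal markers were 6.73, 7.06 and 6.47 on the anti-mir-34 arrays, against 6.98, 7.16 and 6.62 on the mock arrays. All 10 gastrula markers had a positive difference, with a median of 0.82, and all 9 oocyte and maternal markers a negative one, with a median of -0.76, although 0 of the 19 passed. Their part in the values above was not tested. Without mock replicate 3 of 7 hpf, 5 chain genes and 1 ribosome gene passed, among them cox17 (adjusted p = 0.0259), atp5mc3b (0.0243), atp5mc1 (0.0302), ndufb2 (0.0343) and mrpl48 (0.0439). The share of all probe sets that passed in that fit was not counted, so these counts stand without a background. The array left out had the highest gastrula marker median of the mock arrays, 6.57 against 5.93 and 4.60.

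At 24 hpf, 0 of 150 genes passed, where 0.0129% of all probe sets passed, and 1 gene had an unadjusted p under 0.05, beside 4.43% of all probe sets. The groups did not overlap for 10 of the 150, beside 9.18%. The gene with an unadjusted p under 0.05 was sdhaf3, an assembly factor of complex II, with 0.29, 0.15 and -0.34 in anti-mir-34 embryos, against 1.65, 2.01 and 1.76 in mock embryos. Its difference was -1.77 ± 0.57 (adjusted p = 0.843), between dim levels, and -0.20 with 16 added. The median difference was 0.01 for the ribosome and -0.00 for the chain, and the quartiles of the chain genes were -0.10 and 0.07. The 3 arrays of each group of 24 hpf lay close together for many members, such as sdhb, ndufb10 and atp5mc1.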

How the data were processed

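Values are log2 signals of 18 Affymetrix zebrafish arrays, as the authors deposited them. The scanner software GCOS is named, with no version, per the submitters' processing notes. The method of summary and normalization is not named in labels, notes or file, and the shared list of sorted values across arrays comes from the file itself. Members were found by symbol in GEO's platform annotation, which can be old, and all 150 matched RefSeq by gene number with 0 changed symbols. Of 168 probe sets, 18 second ones of 16 genes were set aside, as were 2 with several symbols. After 115 control probe sets were left out of 15617, limma 3.58.1 in R 4.3.3 fitted 6 group means to 15502 probe sets, with moderated tests with an intensity trend (12 residual and 8.06 prior degrees of freedom) and no filter. P-values were adjusted by Benjamini and Hochberg within each comparison, two-sided, at 0.05, and standard errors come from this fit. An exact permutation test of 3 against 3 arrays cannot go below 0.1. The fit was tested on simulated data. The members, lists and tests were chosen with earlier results of these data known.

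Named genes were, per class and age comparison, up to 3 called genes with the largest difference each way, called genes of the injection comparisons, the 5 with the smallest p where fewer than 5 were called, the sdh genes, paralogue sets, and the highest and lowest member of each class. The genes ndufab1a, ndufaf1, ndufaf5 and ndufs8a, and comparisons of a named gene other than the one that named it, were chosen after their values were seen. Alternatives were 16 added before the logarithm, a filter on dim probe sets, no intensity trend, the mean of a gene's probe sets, quantile normalization, fewer arrays in the fit, the replicate number as a block, and arrays left out.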

Additional observations from a re-analysis of the deposited data

Results flagged for a closer look

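The injection difference of malsu1 changed with age: it was -3.05 at 1 hpf, 0.71 at 7 hpf and -0.15 at 24 hpf (limma's F-test of the interaction, adjusted p = 0.0104, n = 3 arrays per group). It was lower in all 3 anti-mir-34 arrays than in all 3 mock arrays of 1 hpf. The gene was listed with its 1 hpf result known, its anti-mir-34 level there was dim, and the call was lost with 16 added, without mock replicate 1 of 1 hpf, and without mock replicates 2 of 7 and 24 hpf together. sdhb and mrpl2 did not pass this test (adjusted p = 0.152 and 0.173). Groups of 3 arrays were not tested for outlying samples.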

How the results depend on the processing

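Among the named genes, no setting turned the direction of a called gene. Other members were not followed one by one, and counts were compared by their totals, not by direction. The share of all probe sets called was not counted under the other settings. In ribosome and chain genes, the injection comparison at 1 hpf called 2 and 1 genes, against 1 and 0 without the intensity trend and 0 and 0 with only its 6 arrays in the fit. From 1 to 7 hpf in mock embryos, 9 ribosome genes were called, and 15 with dim probe sets left out; 27 chain genes were called, and 17 with only the arrays of both ages. The interaction called 1 ribosome gene, and 0 with 16 added or without mock replicates 2 of 7 and 24 hpf together. With 16 added the chain minus ribosome medians were, at 7 and 24 hpf, 0.785 and 1.52 in anti-mir-34 embryos and, at 1, 7 and 24 hpf, 0.614, 0.743 and 1.49 in mock embryos. With 1 array left out, ribosome and chain counts spanned 1 to 3 and 0 to 2 for the injection at 1 hpf, 0 to 1 and 0 to 5 at 7 hpf, and 0 to 0 at 24 hpf. For 7 against 1 hpf they spanned 19 to 31 and 36 to 52 in anti-mir-34 embryos, and 5 to 11 and 19 to 32 in mock embryos, with 5 without mock replicate 1 of 1 hpf. For 24 against 7 hpf they spanned 14 to 22 and 62 to 67 in anti-mir-34 embryos, with 14 without replicate 2 of 24 hpf, and 21 to 27 and 58 to 63 in mock embryos. The interaction spanned 0 to 1 in both, with 1 chain gene without anti-mir-34 replicate 2 of 1 hpf. The cause was not tested. The mean of a gene's probe sets moved no count by over 1.5 times. Neither did quantile normalization, which could change little, because the arrays already share 1 sorted list of values. Same-number correlations of deviations were -0.0737 to 0.280, and 0 of 15 group pairs had all 3 over 0.1. Between the injections at 7 hpf they were 0.0619, 0.280 and 0.253, with a mean of 0.198, against -0.0989 for different numbers. These means were 0.0823 against -0.0411 at 1 hpf, and 0.0146 against -0.0073 at 24 hpf. Whether anti-mir-34 and mock arrays of the same number were paired within an age was not tested. With the replicate block, 23 ribosome and 71 chain genes were called for 24 against 7 hpf in anti-mir-34 embryos and 27 and 61 in mock embryos, and no count moved by over 1.5 times. Dim genes limit the precision: their differences depend on the constant added.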

Other observations

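Other mitochondrial gene lists were counted between 7 and 24 hpf with the same limma test. Over all probe sets 16.5% rose and 19.4% fell in anti-mir-34 embryos, and 19.5% rose and 23.5% fell in mock embryos. Of 20 genes of the citric acid cycle and pyruvate dehydrogenase, 12 rose and 1 fell in anti-mir-34 embryos, and 13 rose and 1 fell in mock embryos, with median differences of 0.99 and 1.02. ogdha, for the oxoglutarate dehydrogenase component, rose by 2.47 and 2.92, idh2 by 1.39 and 1.45, and suclg1, a subunit of succinyl-CoA ligase, by 1.56 and 1.57. pcxa, for pyruvate carboxylase, fell by 2.37 in anti-mir-34 embryos, and idh3g by 1.32 in mock embryos, both between dim levels.

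The next lists had small counts, and several of their shares lay near those over all probe sets. Of 10 mitochondrial translation factors and tRNA ligases, 0 rose and 1 fell in anti-mir-34 embryos, and 1 rose and 3 fell in mock embryos. tsfm, an elongation factor, fell by 1.60 ± 0.47 (adjusted p = 0.0114) in anti-mir-34 embryos and by 3.48 ± 0.47 (adjusted p = 6.69e-06) in mock embryos. Of 8 genes for mitochondrial DNA upkeep and transcription, 2 rose and 3 fell in each injection. tfam, which packages mitochondrial DNA, rose by 1.12 ± 0.32 and 1.56 ± 0.32, and mterf4 fell by 1.40 and 2.51. Of 24 import genes, 5 rose and 2 fell in anti-mir-34 embryos, and 3 rose and 5 fell in mock embryos. The paralogues tomm20b and tomm20a moved apart, with differences of 1.26 and -0.94 in anti-mir-34 embryos and 1.89 and -0.81 in mock embryos. Among 5 biogenesis regulators, ppargc1b rose by 2.77 ± 0.54 and 2.34 ± 0.54 and pprc1 fell by 2.6 ± 0.24 and 2.56 ± 0.24. The median of these 5, as a mean of 3 arrays, was 6.69 at 7 hpf and 5.38 at 24 hpf in anti-mir-34 embryos. In mock embryos it was 6.64 and 5.49. slc25a4, an ADP/ATP carrier gene and 1 of 4 listed for cytochrome c and carriers, rose by 6.54 ± 0.83 and 6.39 ± 0.83. The median of those 4, as a mean of 3 arrays, was 5.89 at 7 hpf and 8.04 at 24 hpf in anti-mir-34 embryos. In mock embryos it was 5.73 and 8.21. At 7 hpf slc25a4 was dim, with means of 0.48 and 0.87 in anti-mir-34 and mock embryos, as was ppargc1b, with 1.31 and 2.11.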
